A study of Mus musculus with 11 samples.

Results

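The genes described here are 9 regulators of cell cycle arrest in the mouse: the 7 cyclin-dependent kinase inhibitor genes Cdkn1a, Cdkn1b, Cdkn1c, Cdkn2a, Cdkn2b, Cdkn2c and Cdkn2d, the p53 gene Trp53, and Mdm2. They were taken by gene name from the 54532 genes of the counts table, and all 9 were found on a single row each. Of these, 6 had enough reads to be tested, and Cdkn1c, Cdkn2a and Cdkn2b did not. RNA had been sequenced from CD8+ Tregs, a regulatory subset of CD8+ T cells that carries Ly49 receptors and was gated as CD8+CD44+Ly49+CD122+, after FACS sorting from the spleens of wild-type mice. The young group (2 to 3 months) had 3 male and 3 female libraries. The middle-aged group (10 to 12 months, called old in the sample labels) had 2 male and 3 female libraries, and no group carried a transgene, a deletion or a treatment according to the labels. The study's purpose for these libraries was to find age-related changes of gene expression in CD8+ Tregs.

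Progress from G1 into S phase needs the D-type cyclins with Cdk4 or Cdk6, and cyclin E with Cdk2, which phosphorylate the Rb protein. The Ink4 proteins (p16Ink4a and p15, p18 and p19 of the same family) bind Cdk4 and Cdk6, whereas the Cip/Kip proteins (p21, p27 and p57) bind cyclin complexes more broadly. The p53 protein is a transcription factor that responds to DNA damage and other stress; Cdkn1a and Mdm2 are among its best known targets, and the Mdm2 protein in turn marks p53 for degradation. In T cells, p27 and p18 are known as brakes on division, and transcripts of Cdkn2a are used widely as a marker of senescence.

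Library totals lay between 6135736 and 24394532 counts, and 2 young libraries, young male 1 and young female 1, had fewer than 10000000. All 10 markers of the sorted cells were detected, with Cd8a between 641 and 1014 CPM (counts scaled to library size, with TMM factors) and Il2rb, the gene of CD122, between 551 and 2622 CPM. The libraries stood apart by replicate number: 3452 of 13129 genes tested (26.3%) had an adjusted p under 0.05 for the number in edgeR's quasi-likelihood test. The balance between long and short genes went with it. The median log2 deviation of the 10% longest genes minus that of the 10% shortest genes was -1.35 to -0.45 in the 4 libraries numbered 1, 0.02 to 0.40 in the 4 numbered 2 and 0.70 to 0.90 in the 3 numbered 3. Middle-aged female 2 also stood apart, with 3076 CPM summed over 14 myeloid marker genes against 244 to 491 CPM in the other 10 libraries. In bulk RNA, fewer cells of a type and less RNA per cell cannot be told apart.

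Scaled to gene length, Cdkn2d, which encodes the Ink4 protein p19, was the highest of the 9 genes, at 158 ± 56.9 CPM per kilobase (SD, n = 11), the 96.8th percentile of all genes tested. Trp53 followed at 69.6 ± 12.9 CPM per kilobase, and the ranges of these 2 genes did not overlap. Mdm2 (15.01 ± 5.74), Cdkn2c (7.89 ± 3.59) and Cdkn1b (5.43 ± 2.29 CPM per kilobase) formed a middle group. Mdm2 exceeded Cdkn2c in 9 of 11 libraries and Cdkn2c exceeded Cdkn1b in 8 of 11, and the ranges of these neighbours overlapped. Cdkn1a (0.394 ± 0.714), Cdkn2b (0.263 ± 0.241), Cdkn1c (0.242 ± 0.200) and Cdkn2a (0.0230 ± 0.0356 CPM per kilobase) lay lower. Cdkn1b exceeded Cdkn1a in all 11 libraries without overlap, and each neighbouring pair among the 4 low genes overlapped. Cdkn2d made up a median of 91.6% (86.4 to 94.97%) of the summed length-scaled level of the 7 inhibitors, and Cdkn1b a median of 92.1% (58.9 to 100%) of the Cip/Kip level.

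**Figure D1:**
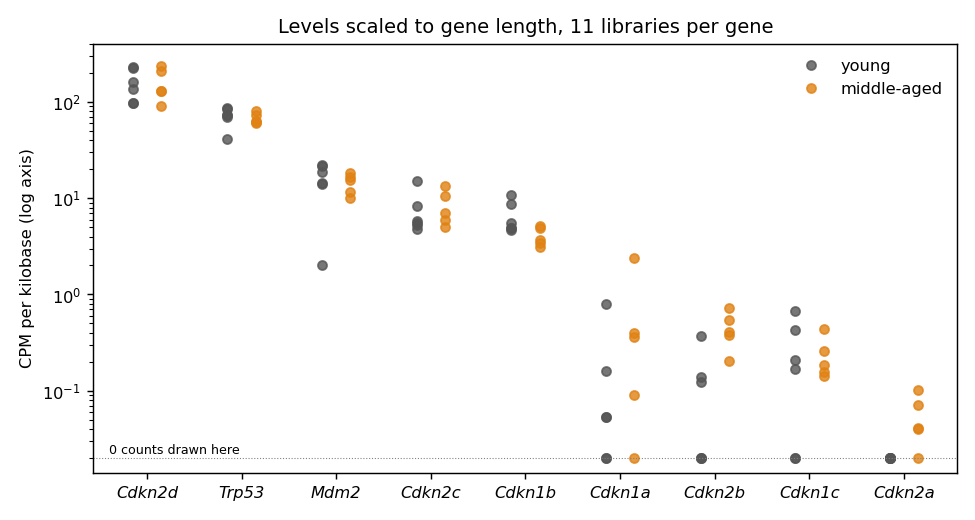
Level of each of the 9 genes in CPM per kilobase of gene length (vertical log axis) in 6 young (grey) and 5 middle-aged (orange) libraries, each point being a library and libraries without a count being drawn on the dotted line. Cdkn2d and Trp53 lie above all other genes in every library, and Cdkn1a, Cdkn2b, Cdkn1c and Cdkn2a lie at or below 2.42 CPM per kilobase throughout.

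The stretches upstream of the RefSeq start sites of Cdkn1a and Cdkn1b are shown because these are the p53 target among the inhibitors and the leading Cip/Kip gene of CD8+ Tregs. They were read from RefSeq (GRCm38.p6) and end at the base before the start site. For Cdkn1a, which has 2 RefSeq promoter windows, this is the start of the upstream window. For Cdkn1a (chr17:29090879-29090978, plus strand) the capitals mark a pair of p53-type half-sites, 2 copies of ACATGT with 4 bases between them, at -49 to -34.
Cdkn1a: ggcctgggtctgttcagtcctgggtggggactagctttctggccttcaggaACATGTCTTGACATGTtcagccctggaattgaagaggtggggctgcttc
For Cdkn1b (chr6:134920301-134920400, plus strand) the capitals mark a CCAAT box at -35 to -31. The same stretch also holds a GC box, GGGCGG, which is left in lower case.
Cdkn1b: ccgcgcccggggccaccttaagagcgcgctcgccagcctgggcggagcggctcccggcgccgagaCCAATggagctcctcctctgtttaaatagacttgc
Each motif was searched on both strands of the RefSeq promoter windows (300 bases each), 11 of which belong to the 9 genes. The p53-type pair was found in 1 of these 11 and in 0.0122% of 32851 promoters, GGGCGG, the GC box, in 8 of 11 and 35.7%, and CCAAT in 6 of 11 and 37.4%. The downstream window of Cdkn1a (chr17:29093519-29093818) held no p53-type pair, and which start these cells use was not tested. A match is a description of these letters only. The marked matches do not overlap each other.

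For none of the 6 genes tested did expression differ between young and middle-aged CD8+ Tregs at an adjusted p under 0.05 (edgeR's quasi-likelihood test with sex as a term, Benjamini-Hochberg adjustment over 13129 genes), and the adjusted p was 1.00 for each. Over all genes, 0.0229% passed. DESeq2 and limma voom also called none of the 6. At an unadjusted p under 0.05, 1 of the 6 was called, Cdkn1b, which was lower in middle-aged libraries, against 2.99% of all genes in either direction (2% higher and 0.99% lower). The age groups overlapped for each of the 6 genes, and 1.32% of all genes had groups that did not. The median log2 fold change of all genes, middle-aged over young, was 0.00.

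**Figure D2:**
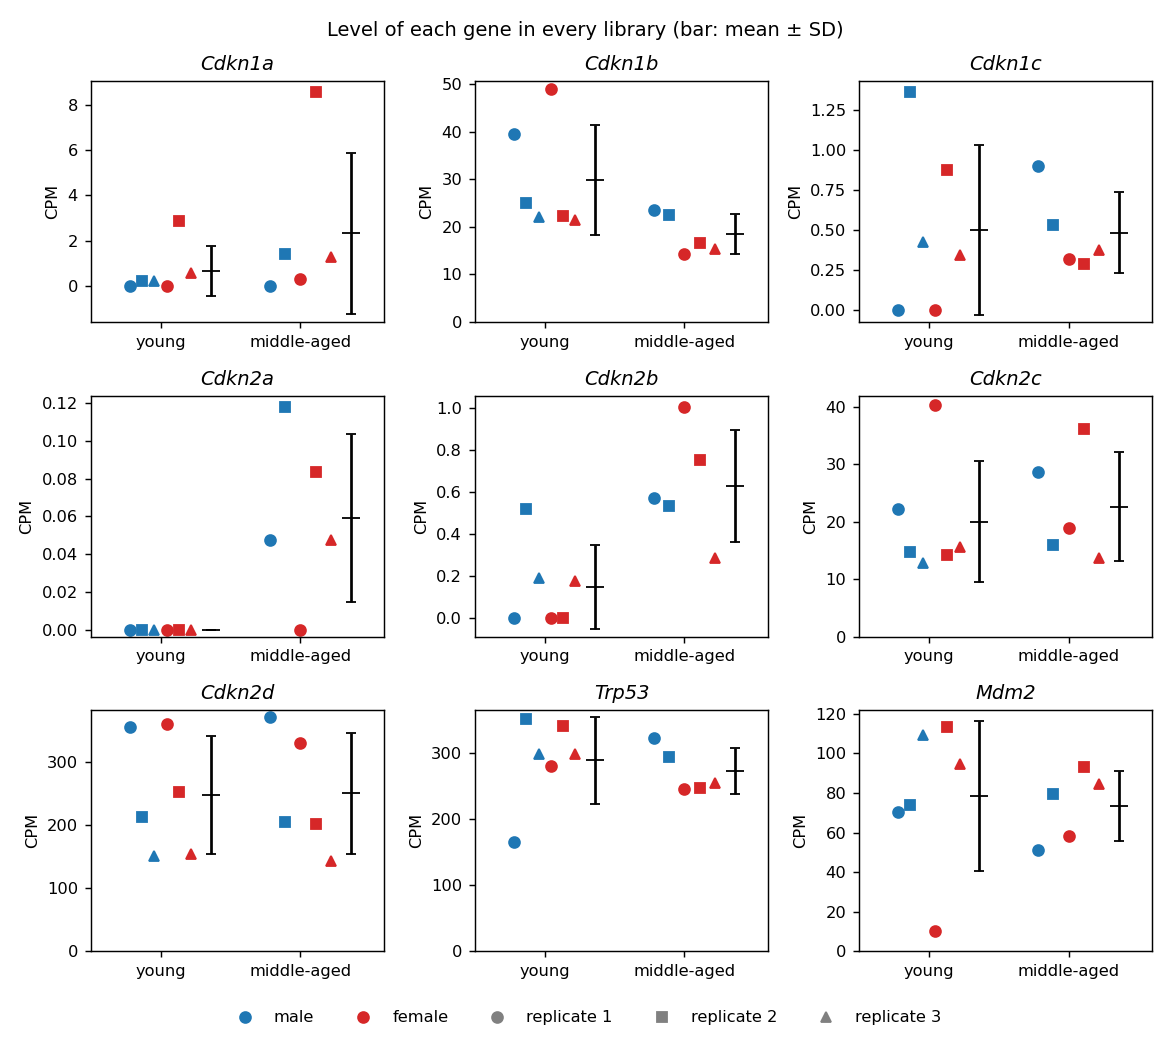
CPM (vertical axis, a separate linear scale per gene) of the 9 genes in every library, by age group, with sex as color, replicate number as symbol, and mean ± SD beside each group (n = 6 young, n = 5 middle-aged). The 2 highest Cdkn1b values are young libraries numbered 1, a single middle-aged female library holds the highest Cdkn1a value, and the Cdkn2d values follow the replicate number in both age groups.

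**Figure D3:**
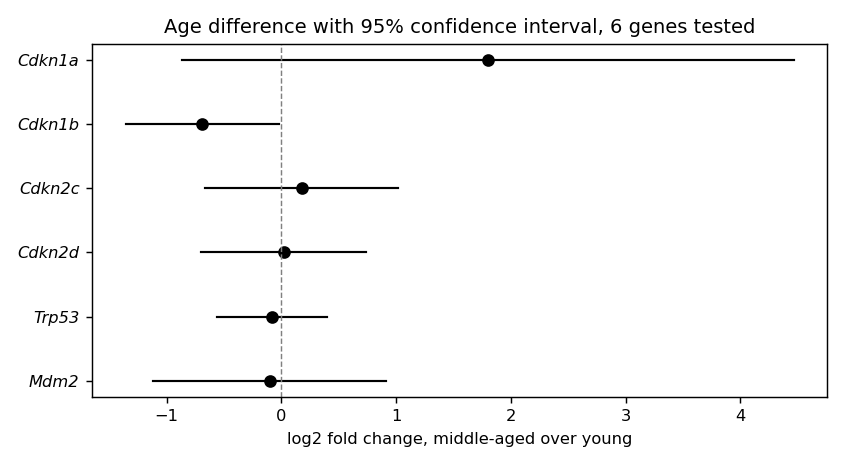
Fitted log2 fold change (horizontal axis, middle-aged over young) with its 95% confidence interval for the 6 genes tested, from edgeR's quasi-likelihood fit. The interval of Cdkn1b (-1.36 to -0.02) lies just below 0, that of Trp53 (-0.57 to 0.40) is the narrowest, and that of Cdkn1a (-0.87 to 4.47) is the widest.

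Cdkn1b encodes p27, the Cip/Kip inhibitor that is abundant in resting lymphocytes and is removed by the ubiquitin ligase subunit Skp2 when cells divide. The gene lies on chromosome 6 from 134920401 to 134925513 (GRCm38). Its level was 39.4, 25.1 and 22.1 CPM in young males 1 to 3 and 48.9, 22.3 and 21.3 CPM in young females 1 to 3. It was 23.6 and 22.6 CPM in middle-aged males 1 and 2 and 14.3, 16.7 and 15.4 CPM in middle-aged females 1 to 3. The 3 middle-aged female libraries lay below all 6 young libraries, the 2 middle-aged male libraries lay within the young range, and the 2 shallowest libraries were the highest. The fitted log2 fold change was -0.69 (SE 0.31, unadjusted p = 0.0447, edgeR), and the exact 2-sided permutation test of mean log2 CPM gave p = 0.0498, where 0.00216 was the smallest p that the 462 splits allow. Such exact tests were made for all 9 genes and their p was not adjusted. Among the 9 libraries with over 10000000 counts the log2 fold change was -0.30 (unadjusted p = 0.158, edgeR; exact permutation p = 0.127), and without young female 1 it was -0.41. When each library was left out in turn, the exact permutation p was 0.0571 to 0.119 without young male 1, young male 2, young female 1, middle-aged male 2 or any of the 3 middle-aged female libraries, and 0.0476 without each of the other 4. With limma voom the log2 fold change was -0.25 (adjusted p = 0.732), in a fit that weights libraries by their quality. Other settings gave a smaller p. The exact permutation p was 0.02 with splits within each sex and 0.00433 with scaling to library size alone. With the replicate number as a term, the log2 fold change was -0.67 (unadjusted p = 0.0217, adjusted p = 0.479, edgeR). Within replicate numbers 1, 2 and 3 the middle-aged minus young difference in mean log2 CPM was -1.25, -0.29 and -0.49.

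In males alone the log2 fold change of Cdkn1b was -0.32 and in females alone -0.97, and the difference between these, 0.67 (SE 0.61), did not pass a test of the interaction (adjusted p = 1.00, edgeR). Of 12 genes for the turnover of p27, all tested, none was called at an unadjusted p under 0.05 in edgeR, and the median log2 fold change was 0.11 (-0.05 without middle-aged female 2). Among them Skp2 was low, with 4.09 ± 2.31 CPM at the young age and 4.40 ± 2.83 CPM at middle age (here and below mean ± SD of 6 young and 5 middle-aged libraries). The transcripts most like Cdkn1b over the 11 libraries were those of Ddx23 (r = 0.92) and 1500009L16Rik (r = 0.90), a description across libraries that also share depth and length balance.

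Cdkn1a encodes p21, the inhibitor through which p53 halts the cell cycle, and lies on chromosome 17 from 29090976 to 29100727. It was near the limit of detection in most libraries. Young males 1 to 3 had 0, 4 and 4 counts, young females 1 to 3 had 0, 72 and 10, middle-aged males 1 and 2 had 0 and 24, and middle-aged females 1 to 3 had 6, 206 and 27. All 3 libraries at 0 bore number 1, and a count of 0 allows up to 0.542 CPM in young male 1, 0.417 CPM in young female 1 and 0.142 CPM in middle-aged male 1. Middle-aged female 2 reached 8.58 CPM, young female 2 reached 2.86 CPM, and no other library exceeded 1.42 CPM. The log2 fold change of 1.80 (SE 1.22, unadjusted p = 0.167, edgeR; exact permutation p = 0.292) passed neither threshold. It was 0.85 without middle-aged female 2 and 0.75 without middle-aged male 2 (adjusted p = 1.00 for each, edgeR). The replicate number had an adjusted p of 0.00965 (edgeR's quasi-likelihood test of that term). With the number as a term, the log2 fold change was 1.76 (SE 0.81, unadjusted p = 0.0558, adjusted p = 0.575, edgeR). With limma voom and that term it was 1.30 (unadjusted p = 0.0264, adjusted p = 0.293). Within numbers 1, 2 and 3 the middle-aged minus young difference in mean log2 CPM was 0.98, 1.95 and 1.61. The highest count of an overlapping gene on the other strand was 2.

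The library with the highest Cdkn1a also had the highest summed level of myeloid (3076 CPM), dendritic cell (2369 CPM), plasma cell (373 CPM) and B cell markers (740 CPM). The other libraries had 648 to 1442 CPM of dendritic cell, 98.6 to 164 CPM of plasma cell and 220 to 733 CPM of B cell markers. For B cell markers it was thus barely above middle-aged female 3 (733 CPM), which had 1.28 CPM of Cdkn1a. The myeloid sum was 256 to 491 CPM among the young libraries and 244 to 475 CPM among the other middle-aged ones, and young female 2, the next highest in Cdkn1a, had 331 CPM. Of the 14 myeloid markers, all tested and none at 0 in every library, 3 were called higher at an unadjusted p under 0.05, namely Lyz2, S100a8 and S100a9. Over all genes, 2% were called higher and 0.99% lower. Of 12 NK cell markers, 1 was called higher and 5 lower, and of 6 erythroid and platelet markers tested 3 were called lower. No marker of B, plasma, dendritic or CD4 T cells was called. The genes most like Cdkn1a were Igha (r = 0.95), the constant gene of IgA, and Mmp9 (r = 0.93), a protease of neutrophils and macrophages, with 202 and 81.3 CPM in middle-aged female 2 and at most 6.25 and 5.90 CPM elsewhere. The part of such cells in the level of Cdkn1a was not tested.

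**Figure D4:**
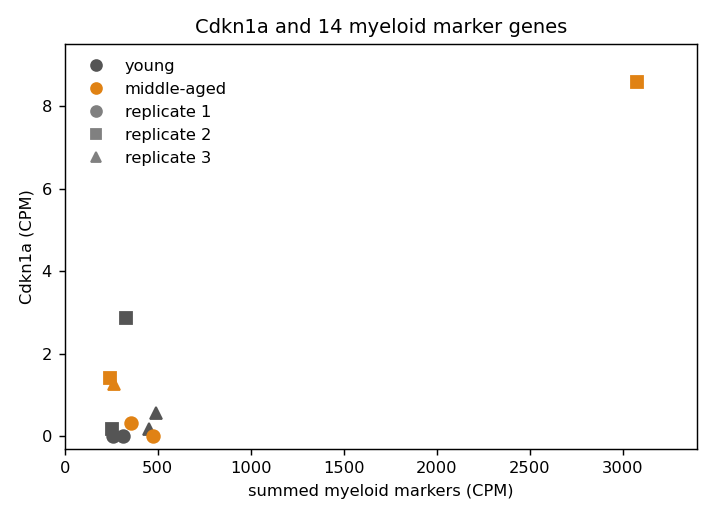
Cdkn1a (vertical axis, CPM) against the summed CPM of 14 myeloid marker genes (horizontal axis) in each library, with age group as color and replicate number as symbol. Middle-aged female 2 stands alone at 3076 CPM of myeloid markers and 8.58 CPM of Cdkn1a, and young female 2 has 2.86 CPM of Cdkn1a at a myeloid sum of 331 CPM.

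Cdkn1c, the imprinted gene of p57 on chromosome 7 (143458339 to 143461050), was low in both groups. It had 0, 29 and 9 counts in young males 1 to 3, 0, 22 and 6 in young females 1 to 3, 19 and 9 in middle-aged males 1 and 2, and 6, 7 and 8 in middle-aged females 1 to 3. It averaged 0.501 ± 0.531 CPM in young mice and 0.484 ± 0.251 CPM in middle-aged mice, and the middle-aged range lay within the young range (exact permutation p = 0.515).

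Among the Ink4 genes, Cdkn2d (chromosome 9, 21288410 to 21291407) was well measured, with 1971 to 7816 counts per library. Its level was 356, 214 and 152 CPM in young males 1 to 3, 360, 252 and 154 CPM in young females 1 to 3, 371 and 206 CPM in middle-aged males 1 and 2, and 330, 203 and 143 CPM in middle-aged females 1 to 3. The values fell into 3 bands that followed the replicate number, 330 to 371 CPM for number 1, 203 to 252 CPM for number 2 and 143 to 154 CPM for number 3, with both ages and sexes in each band. The number had an adjusted p of 0.000226 (edgeR's quasi-likelihood test of that term), and 11.4% of all genes had 3 such bands without overlap. The age difference was 0.02 on the log2 scale (SE 0.33, 95% confidence interval -0.70 to 0.74). Within numbers 1, 2 and 3 it was -0.03, -0.19 and -0.09. With the number as a term it was -0.11 (SE 0.09, 95% confidence interval -0.32 to 0.10). Among libraries with over 10000000 counts it was 0.36 (SE 0.30, unadjusted p = 0.25, adjusted p = 0.78, edgeR). The exact permutation p among those libraries was 0.381. In males alone the log2 fold change was 0.26 and in females alone -0.17. Both the sign and the size thus depended on the setting. The genes most like Cdkn2d were Rer1 and Tmem11 (r = 0.99 for each), over libraries that share the same bands. Cdkn2d is 1574 bases long in the table, and the part of gene length in its bands was not tested.

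**Figure D5:**
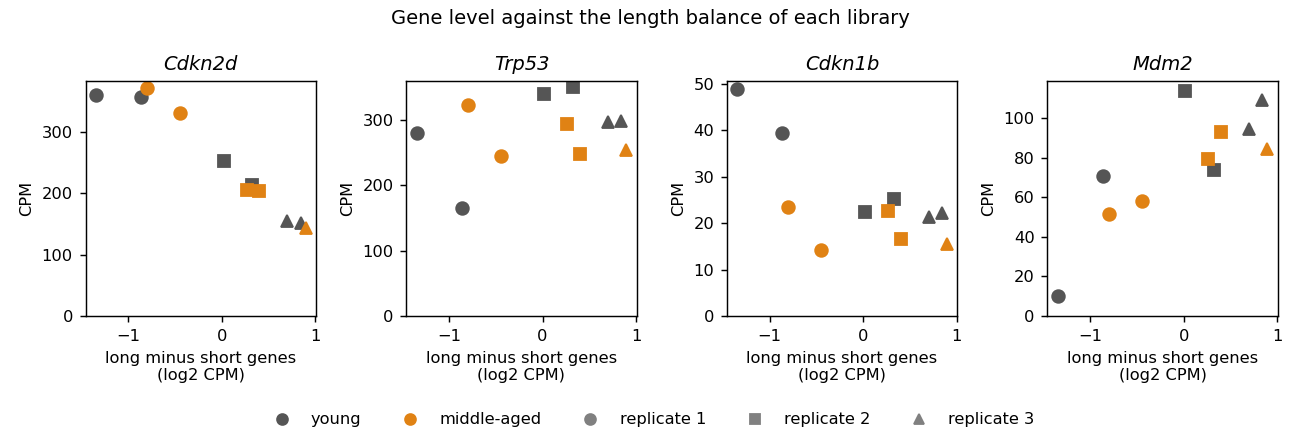
CPM of Cdkn2d, Trp53, Cdkn1b and Mdm2 (vertical axes) against the median log2 deviation of the 10% longest minus the 10% shortest genes in each library (horizontal axis), with age group as color and replicate number as symbol. Cdkn2d lies between 330 and 371 CPM in the libraries numbered 1 and between 143 and 154 CPM in those numbered 3 at both ages, and the 2 leftmost Cdkn1b points are young libraries.

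Cdkn2c encodes p18 (chromosome 4, 109660876 to 109667189). It had 22.2, 14.8 and 12.9 CPM in young males 1 to 3, 40.4, 14.2 and 15.5 CPM in young females 1 to 3, 28.6 and 15.9 CPM in middle-aged males 1 and 2, and 18.8, 36.2 and 13.6 CPM in middle-aged females 1 to 3. The highest library of each age group was young female 1 and middle-aged female 2. Middle-aged male 1, at 28.6 CPM, was the next highest, and the groups overlapped. The log2 fold change was 0.18 (SE 0.39, 95% confidence interval -0.66 to 1.02, adjusted p = 1.00, edgeR). It was 0.53 without young female 1, and -0.03 either without middle-aged female 2 or without middle-aged male 1. Among libraries with over 10000000 counts it was 0.64 (unadjusted p = 0.0708, adjusted p = 0.776, edgeR), with an exact permutation p of 0.111. Middle-aged female 2 also had the highest sum over 30 proliferation genes, 5440 CPM against 1220 to 2321 CPM in the others, and the highest Mki67, 69.8 CPM against 0 to 32.5 CPM. Its part in the level of Cdkn2c was not tested. Ubxn8 (r = 0.92) and Nudt1 (r = 0.91) were most like Cdkn2c.

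Cdkn2b encodes p15 (chromosome 4, 89306299 to 89311039), next to Cdkn2a. Young males 1 to 3 had 0, 11 and 4 counts and young females 1 to 3 had 0, 0 and 3, whereas middle-aged males 1 and 2 had 12 and 9 and middle-aged females 1 to 3 had 19, 18 and 6. The middle-aged libraries held 64 counts in all and the young libraries 18, at group totals of 102502942 and 93960212 counts. Every middle-aged library had reads of Cdkn2b, 3 of 6 young libraries had none, and 4 of 5 middle-aged libraries lay above all young libraries. It averaged 0.147 ± 0.202 CPM in young mice and 0.628 ± 0.269 CPM in middle-aged mice, and mean log2 CPM differed by 1.78 (prior count 2; exact permutation p = 0.0108). The size of the difference depended on the prior count and on the libraries, at 2.77 with a prior count of 0.5 (exact permutation p = 0.0130) and 1.33 among the 9 libraries with over 10000000 counts (exact permutation p = 0.0397). The exact permutation p was 0.00794 to 0.0238 when each library was left out in turn. The gene did not pass the filter on low counts; in the fit of all 25060 genes with at least 1 count its log2 fold change was 2.29 (SE 1.35, adjusted p = 0.995, edgeR). In young male 1, a count of 0 allows up to 0.542 CPM, a level that 2 of the 5 middle-aged libraries did not exceed.

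Cdkn2a (chromosome 4, 89274471 to 89294653) was not detectable above 2 counts in any library. Its row sums 2 transcripts with separate start sites, those of p16Ink4a and p19Arf, and so tells nothing of either alone. All 6 young libraries had 0 counts, and middle-aged males 1 and 2 had 1 and 2 and middle-aged females 1 to 3 had 0, 2 and 1. Since every library lay at or below 3 counts, the limit that a count of 0 allows, no fold change is given. Reads were seen in 4 of 5 middle-aged libraries and in 0 of 6 young ones, a difference that rests on 6 counts in all. The exact permutation test of mean log2 CPM gave p = 0.0152, and 0.00476 to 0.0476 when each library was left out. All values in that test lay within the limit of 3 counts, so no difference in level is drawn from it. Of 23 genes known as Cdkn2a repressors, mostly Polycomb subunits, 21 were tested. At an unadjusted p under 0.05, 1 was called higher (Pcgf2, 0.908 ± 0.554 and 2.62 ± 1.22 CPM, log2 fold change 1.55, adjusted p = 1.00, edgeR) and none lower, at a median log2 fold change of -0.17. Ezh2 and Bmi1 had log2 fold changes of -0.48 and -0.27 and passed neither threshold.

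Trp53 (chromosome 11, 69580359 to 69591873) was the steadiest of the 9 genes, with a coefficient of variation of 18.6% over the 11 libraries. Its level was 165, 351 and 298 CPM in young males 1 to 3, 280, 340 and 298 CPM in young females 1 to 3, 323 and 294 CPM in middle-aged males 1 and 2, and 245, 248 and 254 CPM in middle-aged females 1 to 3. The lowest library was young male 1, the shallowest, and the middle-aged range lay within the young range. The log2 fold change was -0.08 (SE 0.22, 95% confidence interval -0.57 to 0.40, adjusted p = 1.00, edgeR). Among libraries with over 10000000 counts the log2 fold change was -0.24 (unadjusted p = 0.137, adjusted p = 0.776, edgeR), with an exact permutation p of 0.0635. The young libraries of that depth had 298 to 351 CPM. Of the middle-aged libraries, only middle-aged male 1 lay in that range, and the others lay below it. The closest pattern to that of Trp53 was that of Klf2 (r = 0.96), a transcription factor of resting T cells, which had 209 to 1070 CPM.

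Mdm2 (chromosome 10, 117688875 to 117710758), the p53 ubiquitin ligase, had 70.6, 74.0 and 109 CPM in young males 1 to 3 and 10.3, 114 and 94.5 CPM in young females 1 to 3. It had 51.4 and 79.4 CPM in middle-aged males 1 and 2 and 58.4, 93.1 and 84.7 CPM in middle-aged females 1 to 3. Young female 1, with 74 counts, lay far below the rest, and this was also the library with the lowest balance of long against short genes (-1.35). The log2 fold change was -0.10 (SE 0.47, 95% confidence interval -1.12 to 0.91, adjusted p = 1.00, edgeR), -0.39 without young female 1 and 0.10 without young female 2. Among libraries with over 10000000 counts it was -0.45 (unadjusted p = 0.074, adjusted p = 0.776, edgeR), with an exact permutation p of 0.103. Ficd and Zfp955a (r = 0.99 for each) were most like Mdm2, and both were likewise lowest, at 0, in a single library.

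Neither sex nor its interaction with age was called for any of the 6 genes. At an adjusted p under 0.05 edgeR called none for sex (0.0381% of all genes) or for the interaction (0% of all genes), and at an unadjusted p under 0.05 it also called none of the 6, against 0.754% and 1.2% of all genes. DESeq2 and limma voom called none of the 6 for either at an adjusted p under 0.05. The lowest p for sex was that of Cdkn1a, with a log2 fold change of -2.62, male over female (SE 1.31, adjusted p = 1.00, edgeR).

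The p53 targets as a list did not move in one direction. Of 36 genes, 34 were tested, with 17 positive and 17 negative log2 fold changes, a median of -0.02 and no adjusted p under 0.05 in edgeR. At an unadjusted p under 0.05, 1 was called higher and 1 lower. Pmaip1, which encodes the death-promoting protein Noxa, had 8.85, 6.10 and 6.25 CPM in young males 1 to 3, 0.139, 5.64 and 10.4 CPM in young females 1 to 3, 20.8 and 19.0 CPM in middle-aged males 1 and 2, and 22.1, 10.7 and 13.0 CPM in middle-aged females 1 to 3. All 5 middle-aged libraries lay above all 6 young libraries, as in 1.02% of all genes with middle-aged higher (log2 fold change 1.49, SE 0.63, adjusted p = 1.00, edgeR). Sesn1, a stress-induced regulator of growth signaling, was the gene called lower, with 117 ± 30.5 CPM in young mice and 72.7 ± 24.5 CPM in middle-aged mice and overlapping groups (log2 fold change -0.72, adjusted p = 1.00, edgeR). The log2 fold changes of Ccng1, Bbc3 and Bax were 0.17, -0.21 and -0.11, and none passed either threshold.

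Of 25 genes that regulate p53, 23 were tested and none was called at an unadjusted p under 0.05, at a median log2 fold change of -0.01 (-0.19 among the 9 libraries with over 10000000 counts). The kinase gene Atm (log2 fold change -0.50) and Nbn (-0.24) had the lowest p in this list. Mdm4, which encodes a partner of Mdm2, averaged 50.2 ± 10.3 CPM at the young and 44.0 ± 14.7 CPM at the older age.

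The targets of the inhibitors, the CDK, cyclin and Rb family, had 22 positive and 4 negative log2 fold changes among 26 genes tested, a median of 0.20 against 0.00 over all genes, and no adjusted p under 0.05 in edgeR. With other scalings 20 to 23 were positive. Without middle-aged female 2, the library with the highest sum of proliferation genes, 14 were positive and 12 negative and the median was 0.03. At an unadjusted p under 0.05, 1 was called higher, Ccnd3, a D-type cyclin of lymphocytes. It had 349, 510 and 449 CPM in young males 1 to 3, 381, 477 and 426 CPM in young females 1 to 3, 585 and 751 CPM in middle-aged males 1 and 2, and 484, 664 and 595 CPM in middle-aged females 1 to 3. Of the middle-aged libraries, 4 lay above all young libraries and middle-aged female 1 lay within the young range (log2 fold change 0.52, SE 0.19, adjusted p = 1.00, edgeR). Ccnd2, another D-type cyclin, had 758 ± 162 and 818 ± 213 CPM, and the 2 cyclins were not compared per length. Cdk4, Cdk6 and Cdk2 had log2 fold changes of 0.23, 0.47 and 0.36, and Rb1 of -0.15, none past either threshold.

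Of 24 genes for T cell quiescence, all tested, 1 was called higher and 1 lower at an unadjusted p under 0.05, and the median log2 fold change was 0.02 (-0.21 among the 9 libraries with over 10000000 counts). Klf10, a transcription factor induced by TGF-β, had 47.9 ± 13.9 CPM in young and 81.6 ± 14.2 CPM in older mice (log2 fold change 0.78, adjusted p = 0.741, edgeR). Lef1, a transcription factor of naive and memory T cells, had 442 ± 74.9 and 319 ± 47.7 CPM (-0.47, adjusted p = 1.00, edgeR). Foxo1, Klf2 and Btg1 had log2 fold changes of -0.03, 0.03 and 0.31. Of 30 proliferation genes, all tested, none was called at either threshold in edgeR. There were 23 positive log2 fold changes with all libraries (median 0.11), 2 without middle-aged female 2 (median -0.30) and 15 among the 9 libraries with over 10000000 counts (median -0.02). Mki67 had a log2 fold change of -0.20 (SE 1.24). Kif23 (-0.67) and Aurka (1.104) had the lowest p. Of 28 senescence genes 15 were tested. The survival gene Bcl2l1, called higher at an unadjusted p under 0.05, had 59.2 ± 7.10 and 77.7 ± 10.9 CPM (log2 fold change 0.41, adjusted p = 1.00, edgeR), Hmga1 had a log2 fold change of 0.35, and the median of the list was -0.01 (0.09 over 16 genes among the 9 libraries with over 10000000 counts).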

How the data were processed

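RNA had been extracted from sorted CD8+ Tregs with a column kit, and libraries were made with a SMARTER kit for low input. The authors deposited raw counts per Ensembl gene, not normalized, with gene coordinates of GRCm38. The submitters' processing notes name kallisto and mm10; a version, strandedness and the test used are not given in the sources used here. All count columns were used (0 left out), and no library pair was identical (0 pairs).

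Counts were analysed in R 4.3.3 with edgeR 4.0.16 (TMM factors, filterByExpr with a minimum count of 10 and minimum total of 15, glmQLFit with robust estimation, glmQLFTest of age with sex as a term) and Benjamini-Hochberg adjustment at a threshold of 0.05. CPM values use the TMM factors, log2 CPM a prior count of 2, and levels per length the gene length of the table. Limma 3.58.1 and DESeq2 1.42.0 were alternatives. Single genes were compared by exact 2-sided permutation of mean log2 CPM. The fits with edgeR, DESeq2 and limma voom were tested on simulated data. A library without a count was given an upper limit of 3 counts, or 0.119 to 0.542 CPM. Limits cover counting error only, since reads had no molecular identifiers. The ages are those of the design text; a legend of the study gives the upper end of each range alone. That replicates came from separate animals rests on the study's own statement.

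The members and gene lists were chosen with earlier results of these data known. Named genes were the 9 members, the 2 genes most like each tested member by Pearson correlation, 18 fixed regulators, and the 2 genes of each list with the smallest p for age. The tests of replicate number, its block with limma voom and DESeq2, the exact test in the deeper libraries, and the list counts under other scalings, without middle-aged female 2 and in the deeper libraries were added after the data were examined.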

Additional observations from a re-analysis of the deposited data

Results flagged for a closer look

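In 17 groups of 5 or 6 libraries, 4 had a library farther from the others than Dixon's limit allows. Chance gives about 1 in 20 such groups where values are normally distributed. CPM values of low genes with counts of 0, such as Cdkn1a and Cdkn2b, need not be. Cdkn2c, which was also flagged, had at least 123 counts in every library. Whether the 4 are more than chance gives was not tested. Cdkn1a was 8.58 CPM in middle-aged female 2 against 0 to 1.42 CPM in the other middle-aged libraries, and 2.86 CPM in young female 2 against 0 to 0.575 CPM in the other young libraries. Cdkn2b was 0.516 CPM in young male 2 against 0 to 0.191 CPM in the other young libraries. Cdkn2c was 40.4 CPM in young female 1 against 12.9 to 22.2 CPM in the other young libraries.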

How the results depend on the processing

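None of the 152 alternative fits of the 6 tested genes gave an adjusted p under 0.05 for age (lowest 0.137, Cdkn1b with a replicate block in DESeq2); Cdkn1a did not pass the filter in males alone, with at least 10 counts in every library, or without young female 2 or 3, and gave no value there. The number of genes called over the whole table was 17 with at least 1 count in any library, 5 with at least 10 counts in every library, 112 with DESeq2, 138 with limma voom, 5 without the sex term, 0 in males or in females alone, and 6 in libraries with over 10000000 counts, against 3 in the fit reported, and 1 to 4 when each library was left out. Libraries that shared a replicate number deviated together to some degree (correlations of 0.025 to 0.558 in 15 pairs, with 8 of 11 libraries most like their own number), but 1 of the 5 pairs of the same sex lay under 0.1 (0.029) and the labels give the numbers no meaning, so they were not taken as pairing the samples. With a replicate block 19 genes were called with the number shared by both sexes, 2 within sex, 337 with limma voom and 432 with DESeq2. The log2 fold change of Cdkn2d turned to -0.0091 with median-of-ratios factors or DESeq2, -0.009 with upper-quartile factors, -0.17 in females alone, -0.11 with the replicate block shared or within sex or with limma voom, and -0.13 with that block in DESeq2. That of Mdm2 turned to 0.11 with the replicate block shared, 0.26 with it within sex, 0.10 with it in DESeq2 and 0.11 in females alone. That of Cdkn2c was -0.0071 in females alone, and that of Trp53 0.18 in males alone. When each library was left out, the log2 fold change ranged from -0.0344 to 0.53 (Cdkn2c), -0.19 to 0.21 (Cdkn2d) and -0.39 to 0.10 (Mdm2), and the difference in mean log2 CPM from -0.73 to -0.48 (Cdkn1b), -0.15 to 0.20 (Cdkn2d), -0.21 to 0.012 (Trp53) and -0.34 to 0.35 (Mdm2). With all libraries the exact permutation p was 0.58 for Cdkn2c, 0.98 for Cdkn2d, 0.84 for Trp53 and 0.95 for Mdm2. In libraries with over 10000000 counts the difference in mean log2 CPM was -0.32 for Cdkn1b, -0.47 for Cdkn1c and -0.43 for Mdm2. With all libraries it was -0.64, 0.47 and 0.18, so that the sign turned for Cdkn1c and Mdm2. The cause was not tested. Cdkn1a, Cdkn1c, Cdkn2a and Cdkn2b had 0 counts in 2 or more libraries, among them, for Cdkn2b, young female 2, the deepest library. The part of depth in these counts of 0 was not tested.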
